A study of Mus musculus with 21 samples.

Results

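Single-nucleotide variants (SNVs) that were called in at least 2 of 8 mouse tumour lists and that carried no identifier in dbSNP, the public catalogue of known variants, are described here. The sites were chosen by these calls: a site was a chromosome, position, reference base and alternative base. There were 347 such sites, with 1646 calls, among 15030 distinct tumour sites. Of the 11075 sites called in 2 or more tumours they made up 3.13%, and the other 10728 recurrent sites had an identifier. A further 423 sites without identifier were called in 1 tumour.

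The series followed genome stability of mouse embryonic stem cells (ESCs) kept in different media and of tumours from mice made from these cells by tetraploid complementation, in which the ESCs form the embryo proper. The strain of the cells was given as C57BL6X129S6F1, a first-generation cross. The tumours were 1 labelled 2iL-P9, 3 labelled A2iL-P9, 1 labelled A2iL-P14, 2 labelled LCDM-P9 and 1 labelled 2iL-F-P9, each named by the medium of its ESCs. The labels do not explain P9 or P14. All of these media were N2B27 with leukaemia inhibitory factor (LIF, 1000 IU) and the GSK3 inhibitor CHIR99021 (3 µM). The 2iL medium added the MEK inhibitor PD0325901 (1 µM), and 2iL-F was the same medium without feeder cells, which all the others had. A2iL added the Src inhibitor CGP77675 (1.5 µM), and LCDM added agents written Dim and Mih (2 µM each). ESC lists came from these 4 media and from SL, a medium with LIF and 15% fetal bovine serum, with 2 lists per medium.

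All 8 tumour lists were called against the same wild-type blood control, 1 of 2 blood samples, so a feature of that control is shared by all of them. The 10 ESC lists were called against embryonic fibroblasts. Nothing in the labels says which tumours came from separate animals, so the p-values below measure the spread between these lists. Names inside the lists recorded for 2iL-P9 and 2iL-F-P9 differ from their labels, and whether these 2 were exchanged was not settled. The tumour lists held 9752 to 10325 calls, except for LCDM-P9 replicate 2 with 3634. That list held 28 of the 347 sites, against 213 to 254 in each of the other 7.

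In a cross between inbred strains, every base outside the sex chromosomes that differs between the parents is heterozygous in the cells. Its alternative base is then read about as often as its reference base. Most strain differences have dbSNP identifiers. Reads from near-identical copies of a gene, such as segmental duplications or processed pseudogenes, can align to a single place, where a base that differs between the copies is then read in a small share of the reads. Runs of short repeated units are places where both alignment and base calling are prone to error. A mutation carried by some of the cells also gives a low share of reads, so the share alone does not name its source.

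The stretches around 4 sites that fell in a RefSeq promoter window (GRCm38.p6, the build also known as mm10) are examples from duplications and a simple repeat. They do not stand for all sites, since 194 of the 347 (55.9%) lay in neither a duplication nor a repeat. In all 4 the RefSeq base at the position was the reference base of the list. Each stretch is written along the plus strand, with the called position in capitals.
Gm26715 window, chr13:66349215-66349243: cagagcaggacacaGagaaccattcaagc
Gm11756 window, chr4:73920757-73920785: aagtaggagactccCgtgcaaatgtgttc
Pcolce 5′ UTR, chr5:137611366-137611394: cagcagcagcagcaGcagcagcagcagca
Cd209f window, chr8:4105761-4105789: cctctccaccttccCtctgccctgggatt

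The Pcolce site lay inside an uninterrupted run of one repeated triplet, in the 5′ UTR of the gene of procollagen C-endopeptidase enhancer. Its G-to-A call was made in 5 tumours at an alternative-allele fraction, the share of reads with the alternative base, of 0.214 to 0.32 with 16 to 28 reads. The Gm11756 site was the only one of the 4 within a CG pair, and its C-to-T call had fractions of 0.064 to 0.141 in 3 tumours at 71 to 109 reads. At the Gm26715 site G-to-A was called in 7 tumours with fractions of 0.5 to 0.75, at 13 to 19 reads. The Cd209f site, C-to-T, was called in A2iL-P9 replicates 2 and 3 with fractions of 0.115 and 0.121. None of the 4 was called in an ESC list. Of the 4, 3 lay in a segmental duplication, with an identity of 0.99 at Gm26715, 0.983 at Gm11756 and 0.992 at Cd209f, and the Pcolce site lay in a simple repeat.

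The number of sites was highest at 2 and at 7 tumours. There were 68 sites in exactly 2 tumours, 54 in 3, 37 in 4, 42 in 5, 41 in 6, 96 in 7 and 9 in all 8. Of the 96 sites in 7 tumours, 94 were in every tumour except LCDM-P9 replicate 2. The same held for 7177 of the 7241 listed sites in 7 tumours. The share of sites without identifier fell with recurrence, from 12.5% of the sites in 2 tumours to 1.31% of those in 7 and 2.45% of those in 8. Just inside the threshold, the sites in 2 tumours had a median fraction of 0.123, and 26.5% of them lay in a segmental duplication. Just outside it, the sites without identifier in 1 tumour had a median fraction of 0.16, and 20.3% lay in a duplication. These values describe the choice and were not tested.

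**Figure D1:**
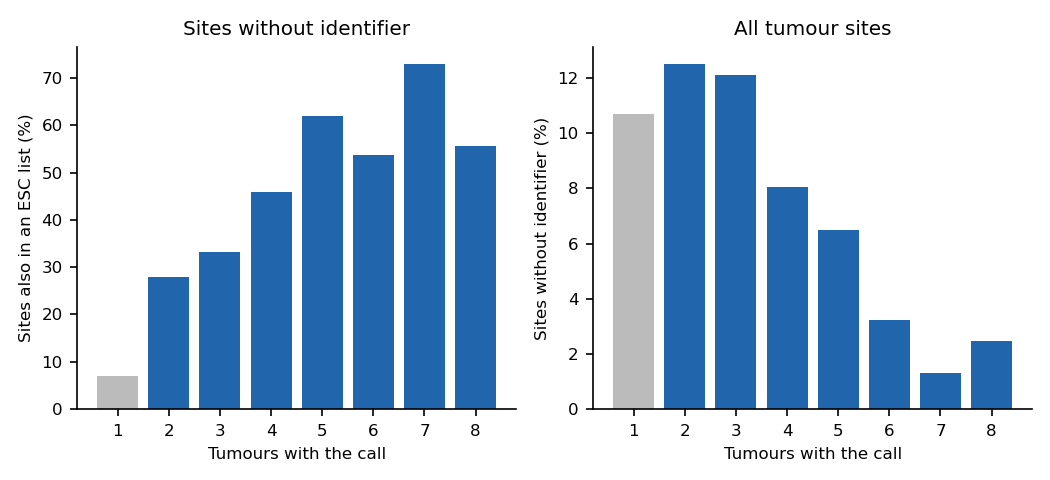
Left, percentage of the sites without dbSNP identifier that were also called in at least 1 ESC list, by the number of tumours with the call (grey, 1 tumour; blue, recurrent sites). Right, percentage of all tumour sites that had no identifier. The first percentage was 7.09% for 1 tumour and 72.9% for 7 tumours, and the second fell from 12.5% for 2 tumours to 1.31% for 7.

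The alternative base was read in a smaller share of reads at the sites without identifier than at recurrent listed sites, in each of the 8 tumours. The median fraction was 0.167 in 2iL-P9, 0.167, 0.189 and 0.178 in A2iL-P9 replicates 1 to 3, 0.167 in A2iL-P14, 0.174 and 0.192 in LCDM-P9 replicates 1 and 2, and 0.19 in 2iL-F-P9. At listed sites it was 0.435 to 0.44 in 7 tumours and 0.522 in LCDM-P9 replicate 2, so that the ranges of both sets did not overlap. The mean difference was -0.27 ± 0.026 (SD, n = 8), lower in 8 of 8 tumours (exact two-sided sign-flip permutation over tumours, p = 0.00781, adjusted p = 0.0117 over 3 read measures). With 8 tumours 0.00781 is the smallest p this test can give. Many sites were shared: 94 without identifier and 7177 with one were called in the same 7 tumours. The 8 differences are therefore not independent, here or for read depth below.

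Read depth, taken over all of these sites together, was also higher in each tumour. The median was 57 to 74 reads for the sites without identifier and 28 to 38 reads for the listed ones, a mean difference of 32.4 ± 4.45 reads (SD, n = 8; higher in 8 of 8 tumours; exact sign-flip permutation p = 0.00781, adjusted p = 0.0117). The median number of alternative reads was 9 to 12 per call, against 11 to 17 at listed sites. A low fraction gives alternative reads for a call only where depth is high, so depth and fraction are not separate traits. The median base quality of the alternative reads was 37 in both sets and in every tumour, so no difference could show in it. With means in place of medians, the mean difference in base quality was -0.215 (exact sign-flip permutation p = 0.0547, which misses the threshold of 0.05).

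**Figure D2:**
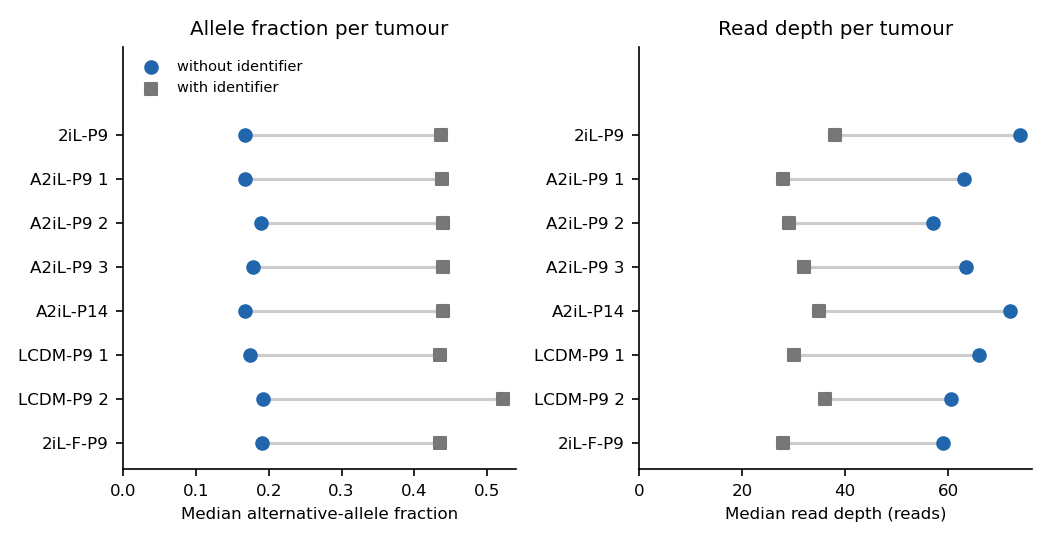
Median alternative-allele fraction (left) and median read depth in reads (right) of the recurrent sites without identifier (blue circles) and with identifier (grey squares) in each of the 8 tumours, with a line joining the values of a tumour. The circles lie between 0.167 and 0.192 in fraction and between 57 and 74 reads in depth.

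Across sites, the median fraction over the tumours with the call ran from 0.033 to 1, with quartiles at 0.0735, 0.144 and 0.31. The listed sites had quartiles at 0.345, 0.444 and 0.5. Ranges of fraction, chosen after the values were seen, held 126 sites under 0.1, 131 from 0.1 to 0.3, 83 from 0.3 to 0.6 and 7 at 0.6 or more. Only 1.5% of the listed sites were under 0.1, against 36.3% of the sites without identifier. The 83 sites from 0.3 to 0.6 sat where 79.0% of the listed sites sat. The higher read depth did not extend to that range, where the median was 24.5 reads against 30 at listed sites. It was 137 against 78 reads under 0.1, 54 against 28.5 from 0.1 to 0.3, and 12 against 10 at 0.6 or more. The spread of fractions between tumours could be taken only over the tumours in which a site was called. Among sites in 5 or more tumours, the median SD between tumours was 0.0144 under 0.1, 0.0428 from 0.1 to 0.3 and 0.0868 from 0.3 to 0.6, and the median SD that read sampling alone would give was 0.0211, 0.0449 and 0.0858. Taken site by site, the ratio of both had medians of 0.779, 0.955 and 0.926, and of 0.727, 0.851 and 0.929 at listed sites.

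**Figure D3:**
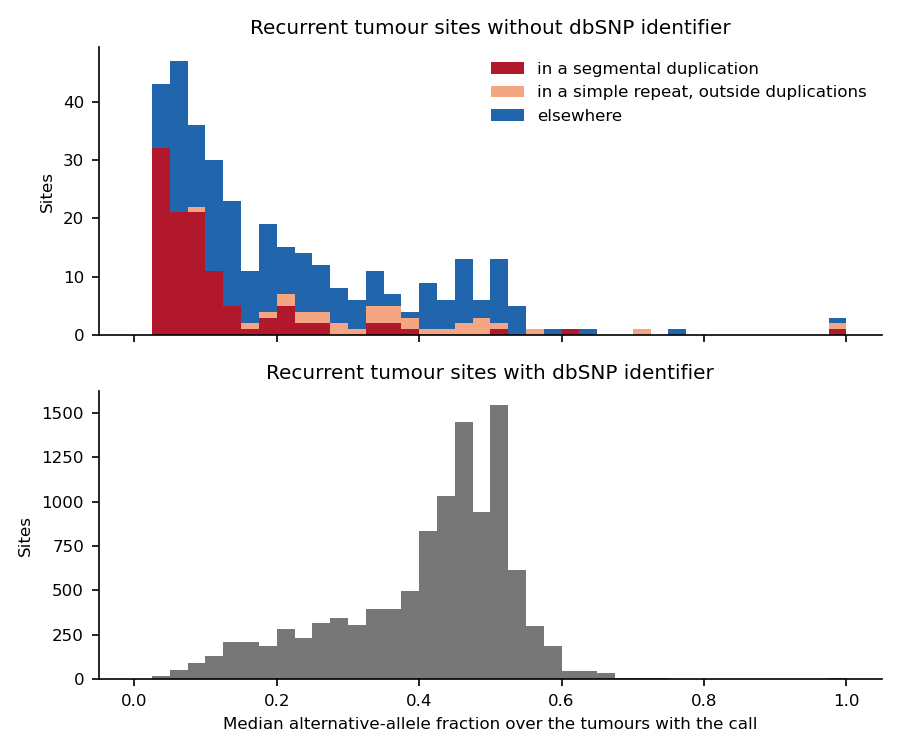
Number of recurrent sites by median alternative-allele fraction over the tumours with the call, in bins of 0.025 (upper, 347 sites without identifier, coloured by sequence context; lower, 10728 sites with identifier). The upper distribution is highest under 0.1, where 74 of 126 sites lay in segmental duplications, with a second group near 0.5 that coincides with the peak of the listed sites.

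Segmental duplications, long stretches that occur at more than 1 place with high identity, held 111 of the 347 sites, or 32.0% (95% Wilson interval 27.3 to 37.1). Of the listed recurrent sites, 3.09% (2.78 to 3.44) lay in one. In the duplications the sites had a median fraction of 0.079 and a median depth of 125 reads, and the identity of the copies was 0.904 to 0.995 with a median of 0.98. Listed sites in duplications had a median fraction of 0.214 at 53.5 reads. By fraction, 58.7% of the sites under 0.1 were in duplications, then 22.1% of those from 0.1 to 0.3 and 7.23% of those from 0.3 to 0.6. The 194 sites outside both duplications and repeats had a median fraction of 0.182 at 58 reads, whereas the 9781 listed sites of that kind had 0.448 at 30 reads.

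Chromosome 14 carried 51 of the sites (14.7%, against 6.02% of the listed sites), and 42 of these 51 were in duplications. Within its first 20 Mb lay 33 of them. The predicted gene Gm5458 had 9 sites, the most of any gene, between positions 19599616 and 19602394, all in a duplication of identity 0.987. Its median fractions were 0.035 to 0.174, 4 of the 9 were missense, and none was in an ESC list. The T113K site of Gm5458, for example, was called in 7 tumours with fractions of 0.031 to 0.05 at 596 to 906 reads. Predicted genes with Gm names held 38 sites (11.0%, against 1.17% of the listed sites), 37 of them in duplications. Genes with Rik names held 19 sites (5.48% against 2.62%), 7 of them in duplications, and pheromone receptor genes (Vmn) held 6 (1.73% against 0.438%), all in duplications. Olfactory receptor genes (Olfr) had 2 (0.576% against 0.205%). Zinc finger genes (Zfp) had 4 (1.15% against 1.13%), Slc genes 7 (2.02% against 1.8%) and Col or Lam genes 5 (1.44% against 1.55%), shares near those of the listed sites. Histocompatibility (H2-) and protocadherin (Pcdh) genes had 0, against 8 (0.0746%) and 12 (0.112%) of the listed sites. At shares this small a count of 0 does not show an absence.

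Missense sites in duplications that were called in the most tumours lay in well-known genes and in predicted genes. In Ints5, a subunit of the Integrator complex that processes small nuclear RNAs, L173R (chr19:8895196) and V125G (chr19:8895052) were called in 7 tumours each. Their median fractions were 0.228 and 0.137. Naip5, a sensor of bacterial flagellin, had A1068E (chr13:100221524) in 7 tumours with fractions of 0.101 to 0.144 at 278 to 387 reads. Gm13212 had Y61C in 7 tumours at a median of 0.056, and Slc25a51, a mitochondrial carrier, had R78H in 6 tumours at 0.0805. The control had 1 alternative read at each of these sites except V125G, at control depths of 54 to 338 reads. None of the 5 was near 0.5 in any tumour.

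Repeats held 44 sites (12.7%, 95% Wilson interval 9.58 to 16.6), against 5.93% (5.5 to 6.39) of the listed sites. Simple repeats made up 31 of them, or 8.93% of all sites against 0.941% of the listed ones. These 31 had a median fraction of 0.355 at a median depth of 12.5 reads, 22 of them had a median depth under 20 reads, and 27 were intronic. They were called in 2 or 3 tumours in 19 cases. Simple repeats thus stood apart from duplications in both measures, with high fractions on few reads. Both measures are tied, since on few reads the alternative reads of a call already make a high fraction.

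In the annotation of the lists, 123 sites were exonic (35.4%, against 22.2% of the listed sites), 126 intronic (36.3% against 66.8%), 52 intergenic (15.0% against 2.14%), 24 in a 3′ UTR and 4 in a 5′ UTR. No site was annotated as splicing, against 0.606% of the listed sites, and at that share a count of 0 does not show an absence. Coding sites comprised 64 missense (18.4%, against 6.33% of the listed sites) and 54 synonymous changes (15.6% against 15.9%). There were also 3 stop-gain changes (0.865% against 0.028%) and 2 with unknown consequence (0.576% against 0.0186%). Missense sites were 3.43 times as many as synonymous sites within duplications (24 and 7) and 0.851 times outside them (40 and 47). Among the listed recurrent sites the ratio was 0.399, from 679 missense and 1702 synonymous sites. Protein changes are numbered on the first RefSeq transcript given for the site.

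The 3 stop-gain sites behaved differently from each other. Gpx6, of the glutathione peroxidase family, had Q217X in exon 5 (chr13:21319066) in 7 tumours with fractions of 0.333 to 0.567 (median 0.519) at 27 to 42 reads and 0 alternative reads among 29 in the control. It was called in 1 ESC list. Sub1, a single-stranded DNA binding coactivator of transcription, had R47X in exon 3 (chr15:11991015) in all 8 tumours at 0.154 to 0.346 (median 0.202). The 2 highest values were 0.346 and 0.316 in LCDM-P9 replicates 2 and 1, and the other 6 tumours were at 0.154 to 0.208. It was called in 5 ESC lists at a median of 0.19, and the control had 1 alternative read of 52. Wdr11, which encodes a WD-repeat protein, had W802X in exon 19 (chr7:129625220) in 3 tumours, with 0.263 (44 of 167 reads) in 2iL-P9, 0.192 (24 of 125) in A2iL-P9 replicate 3 and 0.25 (36 of 144) in 2iL-F-P9. It was in no ESC list, and the control had 1 alternative read of 188.

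Outside duplications and repeats, 14 missense sites were called in 7 or 8 tumours, with median fractions spread from 0.132 to 0.5. The highest were L489F in Fam234a (median 0.5), S516L in Cacna1s (0.49), the pore subunit of the skeletal muscle calcium channel, Y49H in Crat (0.475), carnitine acetyltransferase, and R2070Q in Hydin (0.435), needed for the beating of cilia. All 4 were called in 7 tumours, at 19 to 52 reads. Cacna1s, Crat and Hydin were also in all 10 ESC lists, with ESC medians of 0.459, 0.502 and 0.466, and Fam234a was in 4. Next came A37V in 1700007K13Rik (0.31), M666V in Arid5b (0.28), D749N in the zinc finger gene Hivep2 (0.256), E120K in Rprd1b (0.235), which binds the tail of RNA polymerase II, C664S in the adaptor gene Garem (0.214) and G309D in Mroh2a (0.191). Of these 6, 1700007K13Rik, Hivep2 and Rprd1b were in all 10 ESC lists, Garem was in 3, and Arid5b and Mroh2a were in none. The other 4 of the 14 were G484S in Hspd1 (0.208), R137H in Cyb5b (0.183), S470N in Ceacam20 (0.148) and Y93H in Bclaf1 (0.132).

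Gene lists covered tumour suppressors and oncogenes, DNA repair, cell cycle, pluripotency, and chromatin and DNA methylation, 185 genes in all. They held 1 of the 347 sites, beside 187 of the 10728 listed recurrent sites. The 1 site was a synonymous change (D287D) in Pold1, the catalytic subunit of DNA polymerase delta, on the DNA repair list (57 genes, 113 listed sites). It was called in 7 tumours at a median of 0.5 with 17 to 25 reads, and in all 10 ESC lists at 0.497. The tumour suppressor and oncogene list (40 genes) had 0 such sites and 23 listed sites, the cell cycle list 0 and 14, the pluripotency list 0 and 3, and the chromatin list 0 and 34. Of all recurrent sites only 3.13% had no identifier, so beside so few listed sites a count of 0 does not show that these genes were spared.

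The annotation placed sites in 234 genes, of which 38 had 2 or more, counting sites inside and outside duplications. Several genes carried more than 1 site outside duplications. Mroh2a, which encodes a HEAT-repeat protein, had 5 sites between 88234120 and 88258500 on chromosome 1, in 5 to 8 tumours each, and all 5 were also called in LCDM-P9 replicate 2. Their median fractions were 0.0955 to 0.236, and none was in an ESC list. Arid5b, a DNA binding protein with an ARID domain, had 4 sites within 68097734 to 68098238 on chromosome 10, all in exon 10 and all in 7 tumours, at medians of 0.129, 0.283, 0.28 and 0.328. Hspd1, the mitochondrial chaperonin, had 4 sites from 55078154 to 55078648 on chromosome 1. Of these, 2 were in 7 tumours, an intronic site at a median of 0.324 and G484S at 0.208. The other 2 were L495L in 4 tumours at 0.058 and a 3′ UTR site in 2 tumours at 0.214. Bclaf1, a nuclear protein linked to transcription and splicing, had the 3 missense sites G85R, Y93H and R145H in exon 4, at 0.091, 0.132 and 0.0945 in 6 or 7 tumours. Tmtc2, Gm3696 and Gm9758 also had 3 sites each. Those of Tmtc2, outside duplications, were L398L, I395V and L281L in exon 3 at 0.105, 0.122 and 0.228, and those of both Gm genes lay in duplications. Sites of one gene are close enough to share reads or a source and are not independent of each other.

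Within 150 bp of another such site lay 83 of the 347 sites (23.9%), in 37 runs. The share was 37.3% under 0.1, 19.1% from 0.1 to 0.3 and 13.3% from 0.3 to 0.6. The largest run had 6 sites in 134 bp of intergenic sequence on chromosome 14, with median fractions of 0.042 to 0.089. A pair in Dcun1d2 lay at 13259138 and 13259140 on chromosome 8 with 0.237 and 0.258, and was called in 2 tumours. Listed sites had another listed site within 150 bp in 44.0% of cases. A recurrent listed site lay within 100 kb of 58.8% of the sites, and of 46.8, 64.1, 71.1 and 28.6% by increasing fraction range. Among the listed sites themselves, 10193 of 10728 had another within that distance.

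Genes with a RefSeq pseudogene named after them, such as Hspd1, held a larger share of the sites outside duplications than of the listed sites. They held 14 of 214 such sites with a gene name, or 6.54% (95% Wilson interval 3.94 to 10.7), against 0.796% (0.64 to 0.99) of listed sites. The genes were Atp5l, Dnd1, Hmgb1, Hspd1, Mnd1, Prdx6, Rpl13a, Rplp0 and Stambp. Under 0.1 they were 6 of 39 sites, from 0.1 to 0.3 they were 5 of 96, and from 0.3 to 0.6 they were 3 of 74. Of the 14 sites, Hspd1 had 4 and Mnd1 and Atp5l had 2 each. Sites of one gene are not independent, although the interval treats them so. Whether reads of the pseudogenes gave these calls was not tested, since no genome sequence was used here.

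Tumour depth relative to control depth was higher at some sites than at listed sites. Depth was divided by that of the control at the same site and by the tumour's own median of this ratio over listed sites. The median was 1.09 for the sites without identifier and 0.983 for the listed ones, and 57 sites (16.4%) against 7.8% of listed sites reached 1.5, a value chosen after the data were seen. In duplications 28.8% did, and outside duplications and repeats 12.9%. All 4 Arid5b sites were at 1.57 to 1.95, the Mroh2a sites at 1.37 to 2.07, the Hspd1 sites at 1.2 to 1.38 and the Bclaf1 sites at 0.828 to 0.92. The genes with several sites outside duplications therefore differed from each other in this ratio.

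Transitions, changes between the 2 purines or between the 2 pyrimidines, made up 60.2% of the sites (95% Wilson interval 55.0 to 65.2) and 73.1% (72.3 to 74.0) of the listed ones. With both strands folded together, C>T was 41.2% against 41.7%, T>C 19.0% against 31.5%, C>A 16.1% against 7.61%, T>G 8.65% against 6.74%, C>G 7.78% against 6.49% and T>A 7.2% against 6.03%. The share of C>A was thus above that of the listed sites by more than its interval of 12.6 to 20.4%, and that of T>C was below. By fraction, transitions were 63.5% under 0.1, 48.9% from 0.1 to 0.3 and 72.3% from 0.3 to 0.6. The last value is close to the 73.1% of the listed sites.

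At every site the control had 0 or 1 alternative read, for listed sites too, so sites with more such reads were absent from the lists. There was 1 read at 42.1% of the sites (95% Wilson interval 37.0 to 47.3) and at 36.4% (35.5 to 37.4) of the listed ones. The control was deeper at the sites without identifier, with a median of 63 reads against 37, and deeper coverage gives more chances for a read. At control depths of 20 to 40 reads the shares were 20% against 22.6%, at 40 to 80 reads 51.1% against 65.2%, and at 80 or more 58.9% against 70.6%. Under 20 reads they were 0% of 44 sites and 0.854%. Per 1000 control reads there were 4.36 alternative reads against 8.66. Within each range of 20 reads or more the share was thus lower at the sites without identifier, by the least at 20 to 40 reads, where it rests on 13 of 65 sites. Among sites with 0 such reads the highest recurrence was that of 1700123O20Rik (3′ UTR, median 0.424), Mroh2a (chr1:88258500, 0.236), G530011O06Rik on chromosome X (0.132) and an intergenic site at chr14:53591090 (0.106), all in 8 tumours. Phrf1 (0.625), the Gm26715 window site (0.615), Col22a1 (0.577) and Rit2 (0.532) followed with 7 tumours.

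The ESC lists give calls that the choice of sites did not use. They hold no call with a dbSNP identifier and at most 1 call in 10 kb, so a site can be missing because a neighbour was kept. Of the 347 sites, 177 (51.0%) were called in at least 1 of the 10 ESC lists and 53 in all 10. Each ESC list held 99 to 107 of them. Of the sites without identifier in 1 tumour, 7.09% were in an ESC list. By recurrence the share was 27.9% in 2 tumours, 33.3% in 3, 45.9% in 4, 61.9% in 5, 53.7% in 6, 72.9% in 7 and 55.6% in 8. By fraction it was 29.4% under 0.1 (95% Wilson interval 22.1 to 37.8), 46.6% from 0.1 to 0.3 (38.2 to 55.1) and 89.2% from 0.3 to 0.6 (80.7 to 94.2). Of the 170 sites in no ESC list, 117 had an ESC call within 10 kb.

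The fraction in the ESC lists was close to that in the tumours. Across the 177 sites Pearson's r was 0.89 and Spearman's rho 0.911, as a description over sites that share libraries and are not replicates. The medians differed by at most 0.1 at 152 sites, with a median difference of 0.012, tumour minus ESC. The 53 sites in all 10 ESC lists had a median fraction of 0.423 in the tumours, and 42 of them were in 7 or 8 tumours. They included Col22a1 (tumour 0.577, ESC 0.54), Vwa3a (0.527 and 0.471), Vps11 (0.515 and 0.445), a site in a duplication at chr12:114513712 (0.515 and 0.429), Cacna2d3 (0.5 and 0.427) and Arl5b (0.5 and 0.42). On chromosome X, an intronic site of Aff2 had a fraction of 1 in 6 tumours at 16 to 34 reads and 0.933 in the 10 ESC lists, with 1 alternative read of 57 in the blood control. At the low end, the intergenic chr14:53591090 site had 0.106 in the tumours and 0.0755 in all 10 ESC lists. Recurrence in all 10 ESC lists was thus found at both low and high fractions.

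**Figure D4:**
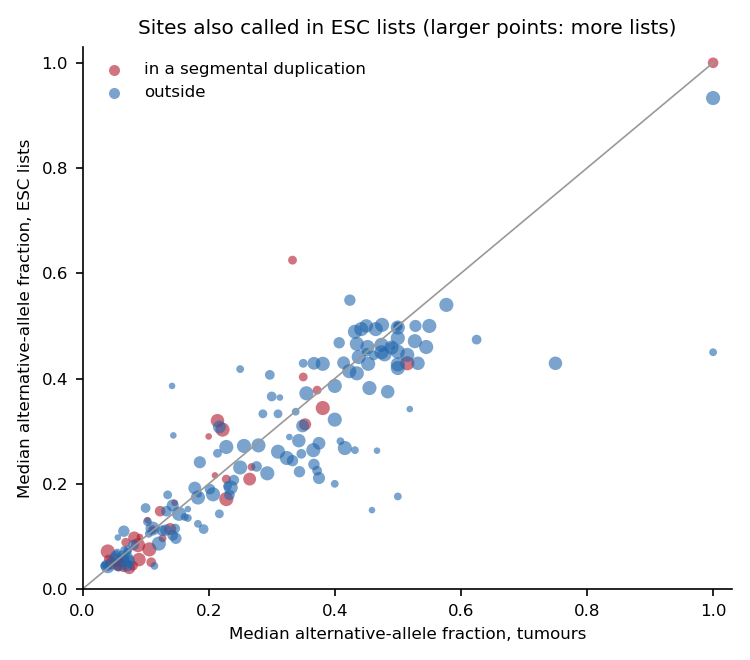
Median alternative-allele fraction in the ESC lists against that in the tumours for the 177 sites called in both (red, in a segmental duplication; blue, outside; point size grows with the number of ESC lists). The line marks equal fractions, and 152 of the 177 points lie within 0.1 of it.

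The sites with the lowest median fractions, up to 0.035, lay in A530032D15Rik (0.033), Gm3558 (0.033), an intergenic place at chr9:85781989 (0.033), 4930572O03Rik (0.0335), Gm5458 (0.035) and, as a pair of neighbours in exon 6, Ptprh (G231G and G231R, 0.035 each), with 2 to 4 tumours each and 180 to 642 reads per call. Those in A530032D15Rik, Gm3558, 4930572O03Rik and Gm5458 were in segmental duplications. Of these sites only the Ptprh pair was called in ESC lists, in 3 lists and in 1.

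Most combinations of tumours held few sites, but 2 combinations held 14 each. These 2 were singled out after the values were seen, and no test is given. The lists give no reads for tumours without the call, so a missing call does not show that the alternative base was absent. The pair of A2iL-P9 replicate 1 and A2iL-P14 had 14 of the 68 sites in exactly 2 tumours, and the next pair had 5. The trio of 2iL-P9, A2iL-P9 replicate 3 and 2iL-F-P9 had 14 of the 54 sites in exactly 3 tumours, and the next trio had 6. Listed sites with these exact combinations numbered 13 and 21, so sites without identifier were 51.9% and 40% of them, beside 12.5% of all sites in 2 tumours and 12.1% of all sites in 3. Choosing combinations by their number of such sites itself raises this share. Among other combinations with at least 3 such sites, the highest share of a pair was 23.8%. The other trios of that size had 40%, 42.9% and 26.7%, so the share did not set the trio apart. In each of the 2 sets singled out, 1 site was in a duplication. In the pair 1 site was in an ESC list and no site had a control alternative read. In the trio 0 were in an ESC list and 4 had 1 such read. Of the pair's sites 6 were C>A, and of the trio's 4.

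Most fractions within each set were low, with the highest at a 3′ UTR site of Prr18 in the pair (0.333 and 0.4) and an intronic site of Cpxm2 in the trio (0.462 in 2iL-F-P9). For the pair, the median over 14 sites was 0.132 in A2iL-P9 replicate 1 (range 0.059 to 0.333) and 0.127 in A2iL-P14 (0.046 to 0.4). Its sites included P218T in A1cf, an RNA-binding cofactor of mRNA editing, at 0.163 and 0.166, D310E in the lipid kinase gene Pip4k2c at 0.121 in both, and H143Q in the ribosomal protein gene Rpl13a at 0.192 in A2iL-P9 replicate 1 and 0.106 in A2iL-P14. Intronic sites of the bile acid receptor gene Nr1h4 and of the autophagy gene Atg16l2 also belonged to it. For the trio, the medians were 0.149 in 2iL-P9, 0.194 in A2iL-P9 replicate 3 and 0.189 in 2iL-F-P9. It held W802X of Wdr11, T193S in the iron transporter gene Slc11a2 (median 0.103), N958S in Ttll5 (0.25), A152T in Auh (0.122), S281C in Ifit1bl2 (0.197), P255R in Nccrp1 (0.188) and L24I in the olfactory receptor gene Olfr522 (0.194). Intronic sites of the telomere protein gene Terf1 (0.109) and of the collagen gene Col7a1 (0.195) were also in it. The alternative reads behind a call in these sets numbered 2 to 52. Both tumours of the pair carry the A2iL label and the number 1, and the trio carries the labels 2iL-P9, A2iL-P9 and 2iL-F-P9. Whether the tumours of either set came from one mouse or cell line was not tested.

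**Figure D5:**
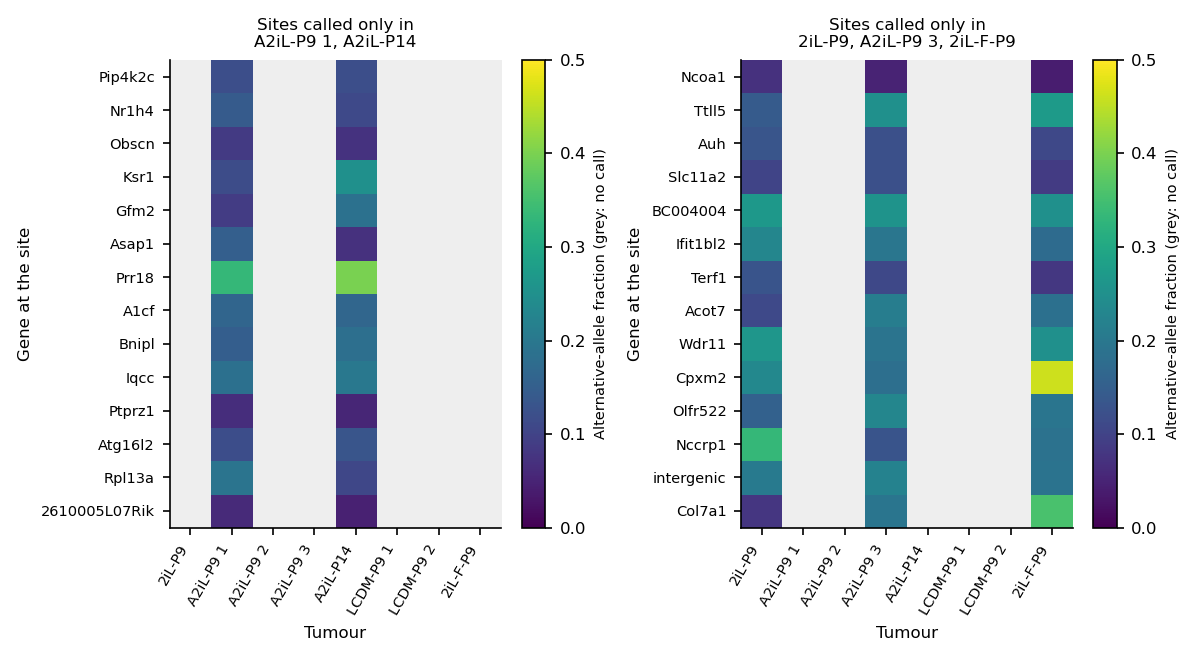
Alternative-allele fraction in each tumour (columns) for the 14 sites called only in A2iL-P9 replicate 1 and A2iL-P14 (left) and the 14 called only in 2iL-P9, A2iL-P9 replicate 3 and 2iL-F-P9 (right), with the gene of each site in rows; grey marks tumours without the call. Median fractions per tumour are 0.127 to 0.132 on the left and 0.149 to 0.194 on the right. No reads are listed for tumours without the call, so grey does not show absence of the alternative base.

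LCDM-P9 replicate 2 held 28 of the sites and 523 of the 10728 listed recurrent ones. Of these 28, 9 were in all 8 tumours, 10 were in duplications and 14 were in an ESC list. Chromosome 14 carried 9 of them (32.1%) and 133 (25.4%) of the listed sites that this tumour shared. Shares differed more elsewhere. On chromosome 1 they were 21.4% and 2.1%, and 5 of the 6 sites there were those of Mroh2a. On chromosome 7 they were 7.14% and 22.9%, on chromosome 8 10.7% and 0%, and on chromosome 11 3.57% and 15.7%. The same list held 155 of the 423 sites without identifier found in 1 tumour.

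The medium labels were compared by the median fraction of the sites per tumour. It was 0.178 ± 0.0108 (SD, n = 3) in A2iL-P9 and 0.181 ± 0.0122 (n = 4) in the other P9 tumours. The difference of -0.00292 was smaller than the spread within either group (exact two-sided permutation over 35 regroupings, p = 0.829, smallest possible p 0.0286).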

How the data were processed

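DNA was sequenced after exome capture according to the series title, while the design text of the series names ATAC-seq for the tumours. Per the submitters' processing notes, BWA, SAMtools and Picard were used with the mouse genome mm10. No source used here names the SNV caller. Each line of the deposited lists gives, per the file headers, a call with reads per allele, mean alternative base quality, depth and alternative-allele fraction of the sample and of its control, beside gene, consequence, segmental duplication, repeat and dbSNP columns. All calls were marked as passed and somatic by the authors.

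Calls were joined across the 8 tumour lists by chromosome, position and both bases (Python 3.11.15, pandas 2.3.3, SciPy 1.17.1). Medians of fraction, depth and base quality were compared within tumours by an exact two-sided sign-flip permutation test with Benjamini-Hochberg adjustment over 3 measures, and A2iL-P9 with the other P9 tumours by an exact permutation test. Shares have 95% Wilson intervals, which cover counting error only and treat sites as independent. The functions were tested on simulated lists. The sites, gene lists and tests were chosen with earlier results of these data known. Sites were named by rule: stop-gains, the missense sites in the most tumours inside and outside duplications, the 5 genes with the most sites (the last tied with 3 others, also named), sites in the gene lists, and those with no control read, the lowest fractions or the most ESC lists. Of 234 gene symbols, 225 stood in the RefSeq table and 7 were synonyms. Partner copies were not searched. Alternatives were a recurrence of 3 or 7 tumours, minima of 20 reads, 5 alternative reads or base quality 30, removal of duplications and repeats or of control reads, other comparison sets and leaving out replicates.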

Additional observations from a re-analysis of the deposited data

Results flagged for a closer look

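Over 10 per-tumour measures, 5 set LCDM-P9 replicate 2 apart from the other 7 tumours by Dixon's criterion. For values of equal precision, chance meets this criterion in about 1 of 20 groups. That tumour held 28 of the sites against 213 to 254. The median fraction of its listed recurrent sites was 0.522 against 0.435 to 0.44, and its difference in median fraction was -0.33 against -0.272 to -0.245. Transitions made up 42.9% of its calls at the sites (60.6 to 68.1% in the others), and 35.7% had a control alternative read (43.6 to 47.8%). Both shares rest on those 28 calls, so they are less precise than in the other tumours, and the rate of 1 in 20 does not apply. The difference in median fraction includes the median of the listed sites, so the flags for these measures are not independent. Without this tumour the difference in median fraction was -0.262 and the number of sites 339. What sets this tumour apart was not tested.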

How the results depend on the processing

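Of 122 recomputed values, 106 kept their direction and their side of the threshold, or stayed within their interval or 1.5 times their count. The number of sites was 105 for at least 7 tumours, 194 outside duplications and repeats and 201 with no control alternative read, and 326 to 339 with a replicate left out. The fraction difference became 0.0366 (adjusted p = 0.0469, exact permutation) against unlisted sites of 1 tumour, although over sites the medians were 0.144 and 0.16, and the depth difference was then 20.8 reads. The share in duplications was 23.9% with no control read. The share in repeats was 4.76% for at least 7 tumours, 6.31% with 20 reads, 7.27% with 5 alternative reads and 18.4% with no control read. The share with a control read was 52.4% for at least 7 tumours and 48.2% with 20 reads. Transitions were 65.7% for at least 7 tumours. The small A2iL-P9 difference turned to 0.00967 for at least 7 tumours, 0.00596 with no control read and 0.00245 with means, and ranged from -0.00725 to 0.00275 with a replicate left out; its exact permutation p stayed at 0.5 or more. A replicate block pairing A2iL-P9 and LCDM-P9 by number gave -0.00525. The deviations of same-numbered tumours had a correlation of 0.0494 over 402 sites, so the numbers were not taken as pairs. The cause of these changes was not tested. Calls at a few reads limit what simple repeats show, and the ESC spacing limits what absence from an ESC list shows.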
